A study of Homo sapiens with 15 samples.

Results

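The replication-dependent histone gene clusters were taken as 5 windows of hg19, and a peak belonged to a window when its start lay inside it. The windows are chr6:26010000-26290000, chr6:27090000-27120000 and chr6:27770000-27870000, which hold the HIST1 genes and are called here the major, middle and distal HIST1 windows, with chr1:149750000-149870000 (HIST2) and chr1:228600000-228660000 (HIST3). Together they span 590 kb. They held 35 of the 20388 peaks in the 3 lists: 32 of 17171 WDR5 peaks, 2 of 2527 WT-MYC peaks and 1 of 690 WBM-MYC peaks.

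The peaks come from chromatin immunoprecipitation and sequencing (ChIP-seq) in HEK293, a human embryonic kidney cell line. Retrovirally transduced cells carried wild-type MYC with a FLAG tag (WT-MYC), the same tag on a MYC that is deficient in WDR5 binding (WBM-MYC), or vector alone, each precipitated with the anti-FLAG antibody M2. WDR5 was precipitated from HEK293 cells for which the labels give no transduction, with rabbit IgG as the control. WDR5 and tagged MYC were thus mapped in separate libraries, and the labels do not place them in the same cells. Each of the 5 groups had 3 biological replicates, described as independent, and each list stands for its whole group. No spread between replicates can therefore be given, and the intervals below cover counting error over peaks only. Read depth is unknown, and peaks of the vector and IgG libraries were not analysed here.

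Replication-dependent histone genes encode the H1 linker and the H2A, H2B, H3 and H4 core histones that package newly made DNA. They are short, lack introns and are transcribed strongly in S phase, and their mRNAs end in a stem-loop instead of a poly(A) tail. MYC is a transcription factor that binds DNA with its partner MAX, with a preference for the E-box CACGTG. WDR5 is a scaffold subunit of the complexes that methylate histone H3 on a lysine marking active promoters. In RefSeq on GRCh38.p14 the 5 clusters hold 67 protein-coding histone genes by symbol: 6 for H1, 16 for H2A, 17 for H2B, 14 for H3 and 14 for H4. The major HIST1 cluster has 32 of them, the middle 5, the distal 16, HIST2 11 and HIST3 3 (H3-4, H2AC25 and H2BC26). That assembly is not the build of the peaks, so no peak was assigned to a gene, and whether a peak lies at a histone promoter was not tested.

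The promoters of these genes held short motifs that differed between histone classes, and the E-box was in none of those searched. RefSeq promoters (the 250 bases before the start, GRCh38.p14) were matched for 62 of the 67 genes, leaving H2AC12, H3C11, H3C12, H4C1 and H4C3. To show these motifs in place, 1 H2A promoter is printed from each of 3 clusters: H2AC25 from HIST3, the cluster with MYC peaks, H2AC20 from HIST2 and H2AC6 from the major HIST1 cluster. Each of these genes faces an H2B gene across a short shared promoter, H2BC26, H2BC21 and H2BC4 respectively. The sequences run 5′ to 3′, with the CCAAT box (CCAAT), the TATA box (TATAAA) and the octamer (ATTTGCAT) in capitals where they occur on either strand.
H2AC25: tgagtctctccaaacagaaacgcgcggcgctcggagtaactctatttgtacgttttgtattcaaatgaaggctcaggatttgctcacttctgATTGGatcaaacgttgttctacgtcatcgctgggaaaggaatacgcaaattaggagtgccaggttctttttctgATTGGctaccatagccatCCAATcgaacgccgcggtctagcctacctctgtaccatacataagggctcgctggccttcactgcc
H2AC20: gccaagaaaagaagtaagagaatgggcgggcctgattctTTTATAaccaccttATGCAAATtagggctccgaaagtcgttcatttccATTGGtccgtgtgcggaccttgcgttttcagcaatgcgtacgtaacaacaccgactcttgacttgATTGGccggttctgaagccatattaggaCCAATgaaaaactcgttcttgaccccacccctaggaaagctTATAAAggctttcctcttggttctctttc
H2AC6: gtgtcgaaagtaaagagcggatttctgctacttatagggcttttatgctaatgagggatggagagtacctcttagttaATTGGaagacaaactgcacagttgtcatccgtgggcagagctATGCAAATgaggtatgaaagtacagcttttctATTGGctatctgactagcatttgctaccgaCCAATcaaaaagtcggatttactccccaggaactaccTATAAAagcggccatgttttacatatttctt
Each of the 3 carries 3 CCAAT boxes. The H2AC20 promoter has 2 matches to the TATA box, of which the first (TTTATA) is on the opposite strand, and 1 octamer. The H2AC6 promoter has 1 match to each of these motifs, while neither is in the H2AC25 promoter.

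Both strands of the 62 promoters were searched for 5 motifs, each on its own, so that neighbouring matches may share end bases. The E-box CACGTG was in 0 of 62 (exact 95% interval 0 to 5.78%), beside 7.73% of the 27305 RefSeq genes with a promoter of this length. Its variant CACGCG was in 1, H3C6, beside 11.5% of all genes. The CCAAT box, bound by the factor NF-Y, was in 53 of 62 (85.5%), beside 37.0% of all genes. It was in every H1, H2A, H2B and H3 promoter searched and in 3 of 12 H4 promoters, those of H4C6, H4C9 and H4C13. The TATA box, which positions the transcription machinery, was in 41 (66.1%), beside 13.0% of all genes. A match counted at any position on either strand, so it need not be a working TATA box of that gene. The octamer, bound by the factor OCT1, was in 24 (38.7%), beside 2.03%. It was found in 13 of 17 H2B promoters, in 10 of 15 H2A promoters and in 1 H3 promoter, that of H3C4, which has an entry whose 250 bases equal those of the H2A gene H2AC7. No H1 promoter (of 6) and no H4 promoter (of 12) held it. In the HIST3 cluster the CCAAT box was in 3 of 3 promoters, the TATA box in 1 (0.84 to 90.6%, H3-4) and the octamer in 0 (0 to 70.8%). With 3 promoters, these counts cannot be told from the shares over all 62. Facing genes share part of their promoter, so 1 motif can count for 2 genes. A match, or its absence, is a property of these letters and no record of binding.

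**Figure D1:**
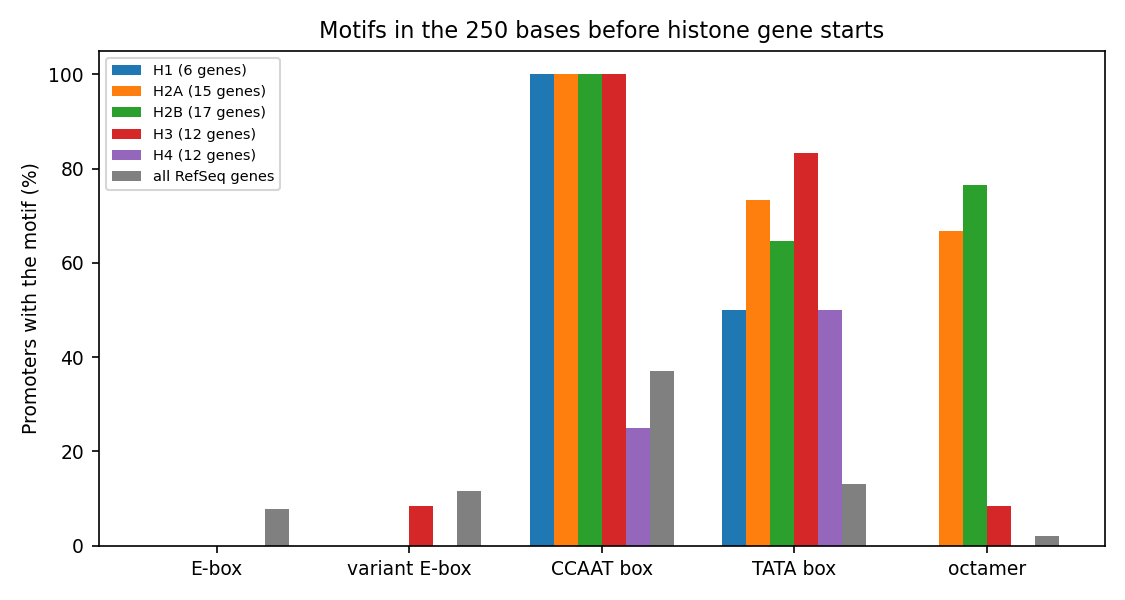
Share of promoters (%, vertical axis) with each of 5 motifs (horizontal axis) in the 250 bases before the gene start, by histone class, with all RefSeq genes in grey. The E-box has no histone bar against 7.73% of all genes, and the octamer stands at 66.7% of H2A and 76.5% of H2B promoters.

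WDR5 peaks were denser in the clusters than in the sequence around them. Pooled over the windows there were 54.2 WDR5 peaks per Mb (32 peaks, exact Poisson 95% interval 37.1 to 76.6), against 12.8 per Mb in the 500 kb on each side (57 peaks in 4.45 Mb, 9.70 to 16.6). The ratio was 4.23 (exact conditional 95% interval 2.66 to 6.64). The windows were drawn around genes, and the flanks were not matched to them for gene content. MYC peaks were too few to tell windows from flanks: WT-MYC had 2 peaks in the windows and 10 in the flanks (ratio 1.51, 0.161 to 7.08), and WBM-MYC had 1 and 2 (ratio 3.77, 0.0639 to 72.4). Within HIST3, the window that held these peaks, the ratios were 6.67 (0.635 to 40.7) and 16.7 (0.212 to 1310), and without the major HIST1 window the pooled ratios were 2.35 and 5.89. HIST3 was singled out for holding the MYC peaks and the major HIST1 window held none, so these higher values are no evidence of MYC density in the clusters.

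By cluster, the major HIST1 window held 17 WDR5 peaks, or 60.7 per Mb, against 7 peaks in its 1 Mb of flanks (ratio 8.67, 3.42 to 24.7). Of those flanking peaks 1 lay before the window and 6 after it. The middle HIST1 window had the highest density of the 5, with 4 peaks in 30 kb, or 133 per Mb, against 8 in its 1 Mb of flanks (ratio 16.7, 3.67 to 62.2). In the other two windows with a ratio above 1 the interval reached below it. The distal HIST1 window held 6 peaks in 100 kb, against 20 in 1 Mb of flanks (ratio 3, 0.986 to 7.75). HIST3 held 3 in 60 kb, against 11 in 1 Mb (ratio 4.55, 0.814 to 17.2). HIST2 showed no excess, with 2 peaks in 120 kb, 16.7 per Mb against 17 per Mb (ratio 0.980, 0.110 to 4.13). The 500 kb before HIST2 held 0 WDR5 peaks and the 500 kb after it 17, the nearest starting 983 bp past the window's end. The promoters of its H4 genes H4C14 and H4C15 are identical over the 250 bases, so reads from these copies cannot be told apart, and the part of such copies in the HIST2 count was not tested.

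**Figure D2:**
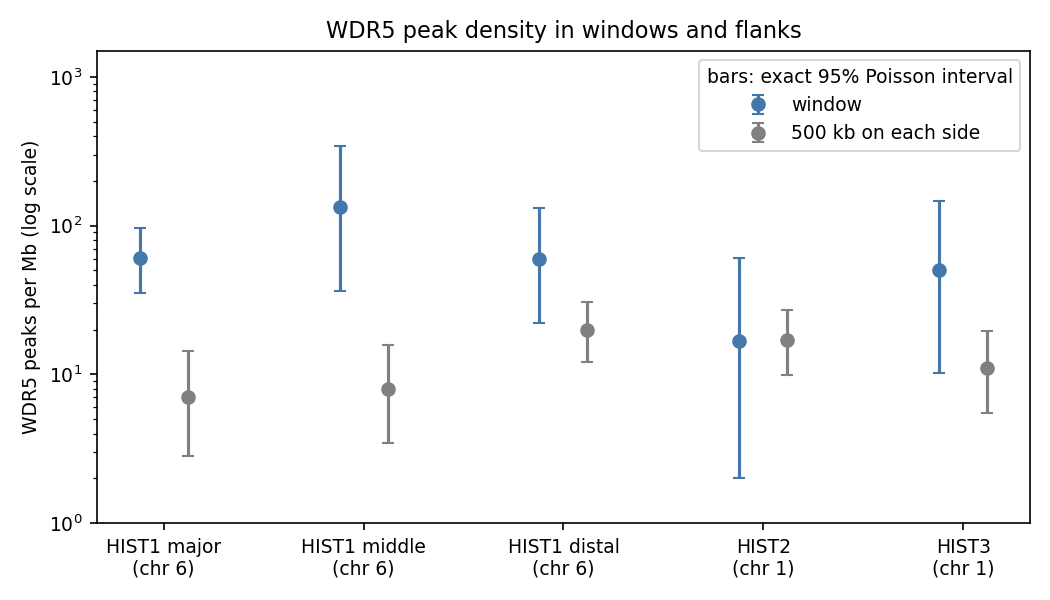
WDR5 peaks per Mb (vertical log axis) in each histone gene window (blue) and in the 500 kb on each side (grey), with exact 95% Poisson intervals as bars. The windows lie above their flanks except HIST2, where the values are 16.7 and 17 per Mb.

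Within the major HIST1 window the WDR5 peaks were unevenly spaced. Overlapping neighbours reduced the 17 peaks to 14 separate regions, beside 32 histone genes in RefSeq. Centres of neighbouring regions lay 736 to 52430.5 bp apart, with a median of 15861.5 bp. Near the window's start 5 peaks began at 26020556, 26020862, 26027108, 26032006 and 26033354. An overlapping pair followed at chr6:26055929-26056384 and chr6:26056293-26056854. A single peak at chr6:26104056-26104506 stood at line 3124 of the WDR5 file, the earliest line of any WDR5 peak in the 5 windows. The next 3 peaks, starting at 26156419, 26157218 and 26158300, again lay close together. The widest peak of this window was chr6:26033354-26033977, at 624 bp, a width it shared with chr6:26204859-26205482. The nearest WDR5 peaks outside began 17.4 kb before the window and 231 kb after it.

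The smaller HIST1 windows showed close pairs too. In the middle window, the 4 peaks formed 2 pairs, starting at 27100684 and 27101543 and at 27113855 and 27114769. The earliest line there was 6865, for the first of these peaks, and the widest was chr6:27113855-27114478, at 624 bp. In the distal window the overlapping peaks chr6:27777691-27778097 (line 3217, the earliest and, at 407 bp, the widest there) and chr6:27777967-27778248 were followed by 4 single peaks starting at 27805938, 27833028, 27839872 and 27860739. Over the 5 windows together 32 peaks formed 28 regions, beside 67 histone genes.

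In the chromosome 1 windows the 5 WDR5 peaks had a median width of 624 bp, against 400 bp for the 27 in the HIST1 windows. Of the 5 peaks 4 had the width of 624 bp that is the commonest in the WDR5 list, which sets this median. Widths over all of chromosome 1 were not compared. Both HIST2 peaks, chr1:149857446-149858069 (line 10899) and chr1:149858877-149859500 (line 14232), spanned 624 bp, and their centres were 1431 bp apart. HIST3 had chr1:228645110-228645741 (632 bp, line 3455), chr1:228646768-228647391 (624 bp, line 14490) and chr1:228651720-228652343 (624 bp, line 15983). The 632 bp peak was the widest WDR5 peak of all 5 windows.

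**Figure D3:**
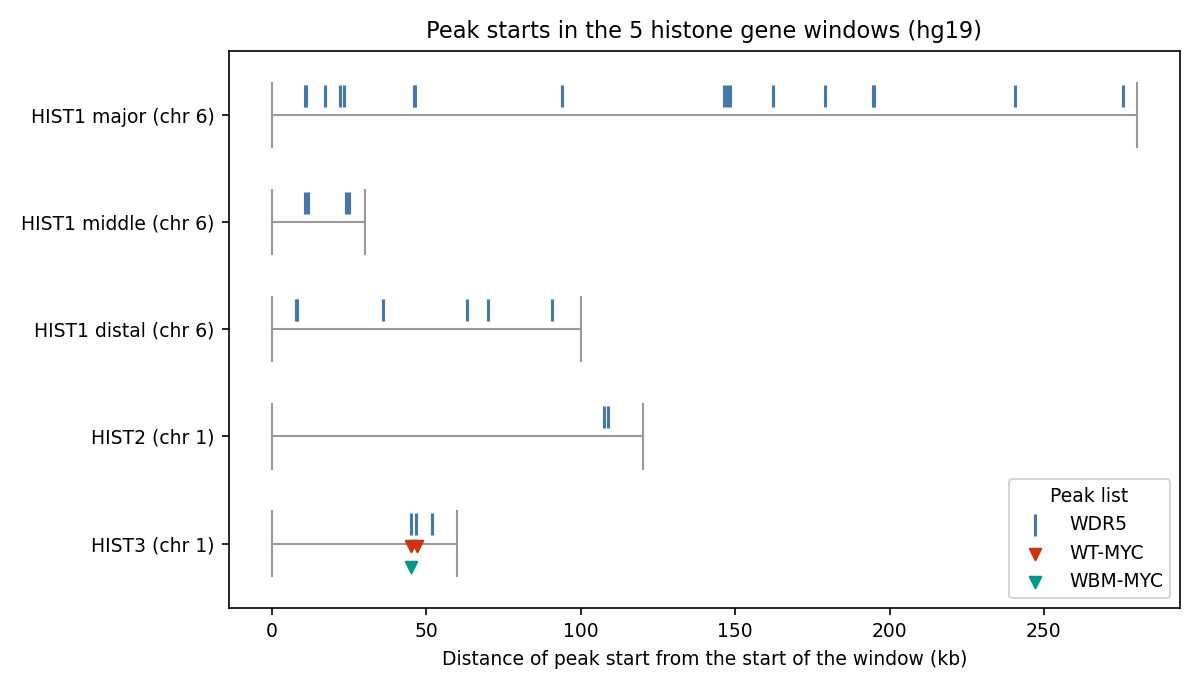
Starts of WDR5 peaks (blue ticks), WT-MYC peaks (red triangles) and WBM-MYC peaks (green triangle) along the 5 histone gene windows, as distance from the window's start in kb. WDR5 peaks occur in each window, and the 2 WT-MYC peaks and 1 WBM-MYC peak lie in HIST3.

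MYC peaks were found in 1 of the 5 clusters, HIST3, and there each shared sequence with WDR5. The first WT-MYC peak, chr1:228645006-228645501 at line 378 of 2527, shared 392 bp with the WDR5 peak starting at 228645110, and their centres lay 172 bp apart. The only WBM-MYC peak, chr1:228645062-228645517 at line 81 of 690, shared 440 bp with that WT-MYC peak and 408 bp with the same WDR5 peak. Its centre lay 36 bp from the WT-MYC centre and 136 bp from the WDR5 centre. This is the single site of the histone windows where the 3 lists met. The second WT-MYC peak, chr1:228646785-228647280, came at line 2427, near the end of its list. It lay wholly within the WDR5 peak starting at 228646768, with centres 47 bp apart, and had no WBM-MYC peak. The third WDR5 peak of HIST3, starting at 228651720, had no MYC peak. As to widths, the WT-MYC peaks spanned 496 bp and the WBM-MYC peak 456 bp, which are both the median and the largest widths of their lists.

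Set beside the whole lists, 2 of 2 WT-MYC peaks in the windows had a WDR5 peak (82.9% of all WT-MYC peaks) and 1 of 2 had a WBM-MYC peak (20.9%). The WBM-MYC peak had both a WT-MYC peak (72.0% of all WBM-MYC peaks) and a WDR5 peak (75.5%). With 2 peaks and 1 peak, these counts cannot be told from the shares in the lists. The flanks of HIST3 also held MYC, with 5 WT-MYC peaks and 1 WBM-MYC peak in 1 Mb. The nearest WT-MYC peaks outside the window began 33.9 kb before it and 14.4 kb after it, and the nearest WBM-MYC peak began 330 kb before it.

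Seen from WDR5, called MYC peaks lay in HIST3 and not in the other 4 clusters, a difference between clusters that was not tested. Of the 32 WDR5 peaks in the windows 2 shared sequence with WT-MYC (6.25%, 0.766 to 20.8%), beside 13.6% of all WDR5 peaks. These 2 are among the 3 WDR5 peaks of HIST3, so that the share was 0 of 29 without HIST3 and 2 of 15 (13.3%) without the major HIST1 window. With WBM-MYC it was 1 of 32 (3.12%, 0.0791 to 16.2%), beside 3.40% of all. In the HIST1 windows 0 of 27 WDR5 peaks had a WT-MYC peak, which allows a share of up to 12.8%, and 0 of 27 had a WBM-MYC peak, with the same limit. Over all of chromosome 6 the share with WBM-MYC was 5.07% (52 of 1026), below that limit, so the WBM-MYC count cannot be told from it. The share with WT-MYC over all of chromosome 6 was 16.1% (165 of 1026, 13.9 to 18.5%). File position goes with this share: in the leading 50% of the WDR5 list 20.5% had a WT-MYC peak, and in the last 50% 6.65%. Of the 27 HIST1 peaks 11 were in the leading 50%, and 0 of 11 (up to 28.5%) had WT-MYC. Both HIST2 peaks were without MYC, a count that allows a share of up to 84.2%.

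Called MYC peaks were few around the HIST1 windows too, but the counts there are small. In the flanks of these windows 1 of 29 WDR5 peaks had a WT-MYC peak (3.45%, 0.0873 to 17.8%), beside 16.1% over all of chromosome 6. In the flanks of the chromosome 1 windows it was 9 of 28 (32.1%, 15.9 to 52.4%), beside 18.7% over all of chromosome 1. Each interval includes the share of its whole chromosome, so neither count can be told from that share. The nearest WT-MYC peaks to the major window began 1.29 Mb before it and 1.07 Mb after it. The latter, at chr6:27356576-27357071, lies between the middle and distal windows and was the only MYC peak in the flanks of the HIST1 windows. The nearest WBM-MYC peaks began at 24775109 and 36842246. In order along chromosome 6, the 21 WDR5 peaks of the first 2 windows belonged to a stretch of 32 consecutive WDR5 peaks with no WT-MYC peak, which spanned 2.44 Mb from 24775073 to 27219709. The 6 peaks of the distal window belonged to the next such stretch, of 33 peaks over 1.35 Mb. Only WT-MYC defined these stretches, and the WBM-MYC peak that began at 24775109 lies at the start of the first one. Of the 115 stretches on chromosome 6, 3 held at least 32 peaks and 2 at least 33, these included. The window peaks are 21 of the 32 and 6 of the 33, and dense WDR5 peaks lengthen such a stretch. These lengths therefore restate the lack of WT-MYC peaks in the windows and are no separate evidence.

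Other stretches of the genome with many WDR5 peaks and no WT-MYC peak were found. The genome was divided into tiles of 280 kb on a fixed grid, and 5234 tiles held a WDR5 peak, with a median of 2. The grid cuts the major HIST1 window at 26040000, so that it lies in 2 tiles. The tile before that point held 6 WDR5 peaks and the tile after it 12, and both held 0 WT-MYC and 0 WBM-MYC peaks. Among all tiles with 6 to 10 WDR5 peaks 37.5% held no WT-MYC peak (233 of 621), and among those with 11 to 16 it was 17.3% (23 of 133). The window itself, with 17 WDR5 peaks, was placed around the cluster, which can raise its count over that of a tile on the grid, so it was not ranked among the tiles.

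**Figure D4:**
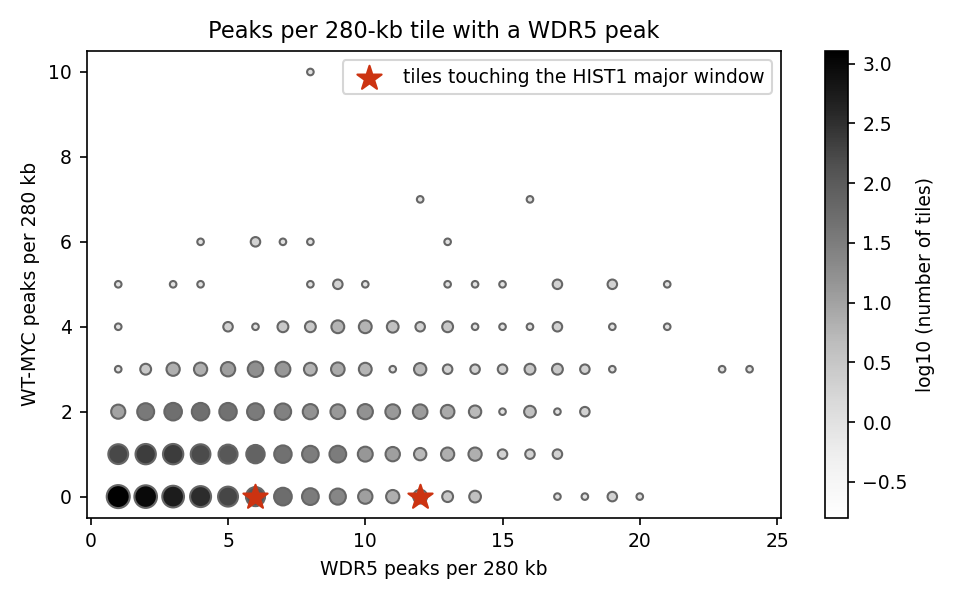
WT-MYC peaks against WDR5 peaks per 280-kb tile of hg19, for tiles with a WDR5 peak, where darker and larger circles stand for more tiles (log10 scale). The stars mark the 2 tiles that touch the major HIST1 window, with 6 and 12 WDR5 peaks and 0 WT-MYC peaks.

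WDR5 peaks of the histone windows had a median width near that of the list and did not appear among its first lines. The narrowest spanned 239 bp, the median 407 bp and the widest 632 bp, beside 419 bp for the whole list. Their lines ran from 3124 to 15983 of 17171, with a median of 10083, and 0 of 32 were in the first 10% of the list. Of the 57 flanking peaks 1 was in that first 10%, so this position is not particular to the windows. The leading 50% of the list held 12 of the 32 window peaks (37.5%), and 24 of the 57 flanking peaks (42.1%). The width of 624 bp, the commonest in the WDR5 list (20.3% of peaks), was that of 7 of the 32 (21.9%), namely 3 of 27 in HIST1 and 4 of 5 on chromosome 1. These 7 stood at lines 10899 to 15983, and in the whole list 62 of 3482 peaks of that width were in the leading 50%. Apart from them, the 12 window peaks in the leading 50% had a median width of 419 bp (335 to 632 bp) and the 13 in the last 50% one of 296 bp (239 to 459 bp). The WDR5 peaks with WT-MYC were the 632 bp peak at line 3455 and a 624 bp peak at line 14490, so they came from both ends of this range. No source used here says what orders the lines or sets the width of 624 bp.

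**Figure D5:**
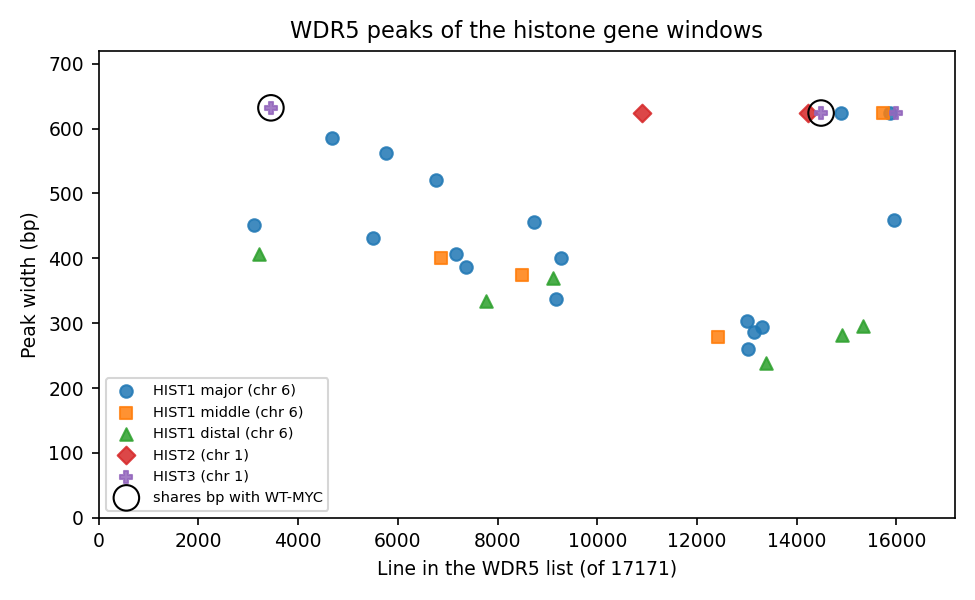
Width (bp) against line in the WDR5 file for the 32 WDR5 peaks of the histone gene windows, by cluster, with circles around the 2 that share sequence with WT-MYC. Apart from a row at 624 bp after line 10899, later peaks tend to be narrower, with medians of 419 bp in the leading 50% and 296 bp in the last 50%.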

How the data were processed

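ChIP-seq peak lists of HEK293 cells were analysed, 1 each for WT-MYC, WBM-MYC and WDR5. The authors' deposited lists hold other values than counts or scores: chromosome, start and end of each peak, with no header. Reads were processed on hg19 with tools that included CASAVA 1.8.2 and Bowtie 0.12.7, per the submitters' processing notes. Not given in the sources used here are the peak caller, its threshold, how controls were used and whether replicates were pooled. A site missing from a list may have been bound below an unstated threshold, and unequal depth would change peak numbers.

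Starts were read as zero-based, as in the BED format, and are printed 1-based. Flanks were 500 kb on each side of a window, with other histone windows removed and shared flanks counted once in the pooled value. Peaks were shared from 1 bp in common. Shares have exact Clopper-Pearson 95% intervals, densities exact Poisson intervals and density ratios exact conditional intervals (Python 3.11.15, scipy 1.17.1). Peaks near each other are not independent, so these intervals can be too narrow. No p-value was computed.

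Histone genes were taken from RefSeq by symbol and split into clusters where neighbours lay over 200 kb apart. Peaks named by position are every MYC peak of the windows, the WDR5 peaks they share sequence with and the earliest and widest WDR5 peak per window. Other positions, the tiles, the stretches and the division by list position were added after the data were seen. The windows, lists and alternatives were chosen with earlier results of these data known. Overlap code was tested on planted peaks that either sat on a WDR5 peak or shared no chromosome with any. The interval of a density ratio was tested on simulated counts larger than the MYC counts here, and the other intervals were not tested.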

Additional observations from a re-analysis of the deposited data

How the results depend on the processing

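Membership by any shared base or by the centre, or merging of overlapping peaks, left each count within 1.5 times and each ratio and share within its interval, as did an overlap of 50% of the shorter peak, centres at most 250 bp apart and flanks of 250 kb or 1 Mb, although flanks of 1 Mb moved the WBM-MYC ratio from 3.77 to 6.31. In the leading 50% of each list the windows held 1 WT-MYC and 12 WDR5 peaks, and the share of WT-MYC peaks with WBM-MYC was 100% (1 of 1). Among the first 690 lines of each list, an alternative chosen after seeing the data, they held 1 WT-MYC and 0 WDR5 peaks. Without the major HIST1 window 15 WDR5 peaks were left, the share of WDR5 peaks with WT-MYC was 13.3%, and the density ratios were 2.35 for WT-MYC and 5.89 for WBM-MYC. Without the chromosome 1 windows there were 0 WT-MYC and 0 WBM-MYC peaks, the WT-MYC density ratio was 0, the share of WDR5 peaks with WT-MYC was 0%, and shares of MYC peaks could not be computed. Without HIST3 (added later) the share of WDR5 peaks with WT-MYC was also 0%. Each window against its own flanks (added later) gave WDR5 ratios of 8.67 for the major HIST1 window and 16.7 for the middle one, against the pooled 4.23. For HIST2 the ratio was 0.98 (0.11 to 4.13), which rests on 2 peaks and shows no excess over its flanks. The WT-MYC ratio was 0 for the middle and distal HIST1 windows and for HIST2, and the WBM-MYC ratio 0 for HIST2, while in HIST3 they were 6.67 and 16.7. The smaller counts follow from fewer lines or windows, and the cause of the other changes was not tested. No paired analysis was possible because each list stands for a whole group and carries no replicate. Depth behind the lists is unknown, so a missing MYC peak shows only that none was called.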
